A study of Homo sapiens with 6 samples.

Results

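This account follows 8 genes of cellular oxygen sensing through 6 RNA libraries of J82, an established human bladder cancer line. They are HIF1A, EPAS1 and ARNT, which encode subunits of the hypoxia-inducible factors (HIF), the prolyl hydroxylase genes EGLN1, EGLN2 and EGLN3, the asparaginyl hydroxylase gene HIF1AN, and VHL. They were chosen by name for their place in the pathway, with earlier results of these data known, and estimated counts of all annotated transcripts of each gene were summed. The 8 are among 52992 genes with a matched transcript, and 7 of them are among the 11909 that averaged 50 counts or more across libraries and are called measured here. EGLN3, at a mean count of 8.5, falls below that minimum and is described by its counts alone.

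HIF is a pair of an alpha subunit, encoded by HIF1A or EPAS1, and the stable partner encoded by ARNT. With oxygen present, the EGLN enzymes hydroxylate prolines of the alpha subunit, VHL then recognises it as part of a ubiquitin ligase, and the protein is degraded. HIF1AN hydroxylates an asparagine of the alpha subunit, which keeps it from binding its coactivators. These steps act on protein, and the libraries measure mRNA only.

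One J82 line, tet-ZFP36L1, overexpresses ZFP36L1 when given doxycycline, and the other, tet-control, is its control line. The ZFP36L1 protein binds AU-rich stretches of 3' UTRs and recruits enzymes that degrade the mRNA. The groups were tet-ZFP36L1 without doxycycline (0 h) and after 6 and 24 h of doxycycline at 1 µg/mL, and tet-control at the same 3 times. Each group is 1 library, so the spread within a group cannot be estimated, and values are given without tests or p-values. The sources used here do not say whether a line is 1 clone or which promoter drives the construct. Intervals below are 95% intervals of counting error alone and do not hold variation between cultures. Levels are CPM, counts scaled to a common library size with TMM, a correction for RNA composition. A gene counts as higher or lower in a comparison when it differs by at least 1.5-fold on log2(CPM + 0.5), a log2 value of 0.585.

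Total estimated counts were 20739025 to 21380480 per library. ZFP36L1 itself had 220.2, 3127 and 3133 CPM in tet-ZFP36L1 after 0, 6 and 24 h, against 233.8, 223.3 and 206.0 CPM in tet-control, and both induced libraries went with their labels. Of 6 epithelial markers, KRT7, KRT8 and KRT18 stood at 99.43 to 764.7 TPM, a level per transcript length, in the 6 libraries, whereas EPCAM had 2.77 to 4.48 TPM and KRT19 and CDH1 had at most 0.70 TPM. Of 8 urothelial markers, FOXA1 had 4.67 to 10.66 TPM and PPARG 1.21 to 14.11 TPM, the other 6 had at most 0.96 TPM, and among these the differentiation genes UPK2 and UPK3A were listed at 0 in each library. Of 6 markers of other cell types, 5 were found. Their summed level was 8.45, 13.4 and 13.7 TPM in tet-ZFP36L1 and 7.35, 5.42 and 5.93 TPM in tet-control, PTPRC had at most 3 counts in a library, and HBB had 0 in each. Of these, ACTA2 had 2.57, 7.68 and 8.93 TPM in tet-ZFP36L1, against 3.59, 2.14 and 2.81 TPM in tet-control, and the part of such shifts in the results below was not tested. The tet-ZFP36L1 24 h library stood apart, with 15695 genes at 10 counts or more, against 14515 to 14956 in the other 5, and a TMM factor of 1.11, against 0.941 to 1.01. Of 4 markers of a mesenchymal state, FN1, which encodes the matrix protein fibronectin, differed most between the lines at 0 h. It stood at 2579, 2786 and 760.5 TPM in tet-ZFP36L1, against 101.1, 157.7 and 94.95 TPM in tet-control, so the lines differed before induction. At 0 h VIM had 1026 against 525.4 TPM, CDH2 67.54 against 29.83 TPM and ZEB1 11.05 against 9.33 TPM. ZEB1 was lower in tet-ZFP36L1 than in tet-control at 6 and 24 h, and VIM was near it at 24 h, at 635.6 against 617.8 TPM. In bulk RNA, fewer cells with a transcript and less of it per cell cannot be told apart.

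Because ZFP36L1 binds AU-rich sequence, the 3' UTRs of the 8 genes were searched on the sense strand for the heptamer TATTTAT, which lies within the nonamer TTATTTATT. The sites below come from GENCODE 29 transcripts on GRCh38, from the transcript with the most estimated counts of each gene, and are shown because they are all the matches in those transcripts. Capitals mark the heptamer, or overlapping copies of it.
HIF1A at chr14:61747134-61747162, plus strand: ctaaagcagtcTATTTATattttctacat
HIF1A at chr14:61747348-61747376, plus strand: gcaccttttTATTTATTTATttttggcta
ARNT at chr1:150810390-150810418, minus strand: gtatacatataTATTTATatcacaattta
HIF1AN at chr10:100553908-100553936, plus strand: ggtggtggttaTATTTATtatgtgattta
HIF1AN at chr10:100558997-100559025, plus strand: taaaaagtgtgTATTTATactcgaatttt
HIF1AN at chr10:100559155-100559183, plus strand: aagatttcctgTATTTATaaacttaattt
VHL at chr3:10150177-10150205, plus strand: cattagagaagTATTTATcaggagaaggt

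HIF1A held 3 copies of the heptamer in a 3' UTR of 1173 bases, of which 2 overlap in the second stretch, 272 bases after the stop codon. That stretch also holds the 2 copies of the nonamer found in the group, and no other member had one. HIF1A also held 8 copies of the shorter pentamer ATTTA in its 1173 bases. HIF1AN held 16 in 11861 bases, EGLN1 7 in 2660, ARNT 6 in 2316 and EPAS1 5 in 2043. EGLN3 held 4 in 1660, VHL 3 in 2117 and EGLN2 0 in 568. HIF1AN held 3 heptamers in 11861 bases, ARNT 1 in 2316 and VHL 1 in 2117, whereas EPAS1, EGLN1, EGLN2 and EGLN3 held none. Of 10978 measured protein-coding genes whose 3' UTR could be read, 31.4% held at least 1 heptamer, 12.5% at least 2 and 8.21% the nonamer in the transcript with the most counts. With the transcript of highest mean TPM, the choice made first, only HIF1A and VHL held a heptamer and 27.8% of the genes did; for HIF1AN that choice falls on a transcript of 708 bases annotated for nonsense-mediated decay, and for ARNT on one with a shorter 3' UTR. The EPAS1 transcript has 5166 bases in GENCODE 29 and 5160 in the deposited files, so the searched version is not the quantified one. A match describes sequence and is not a measured binding site.

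**Figure D1:**
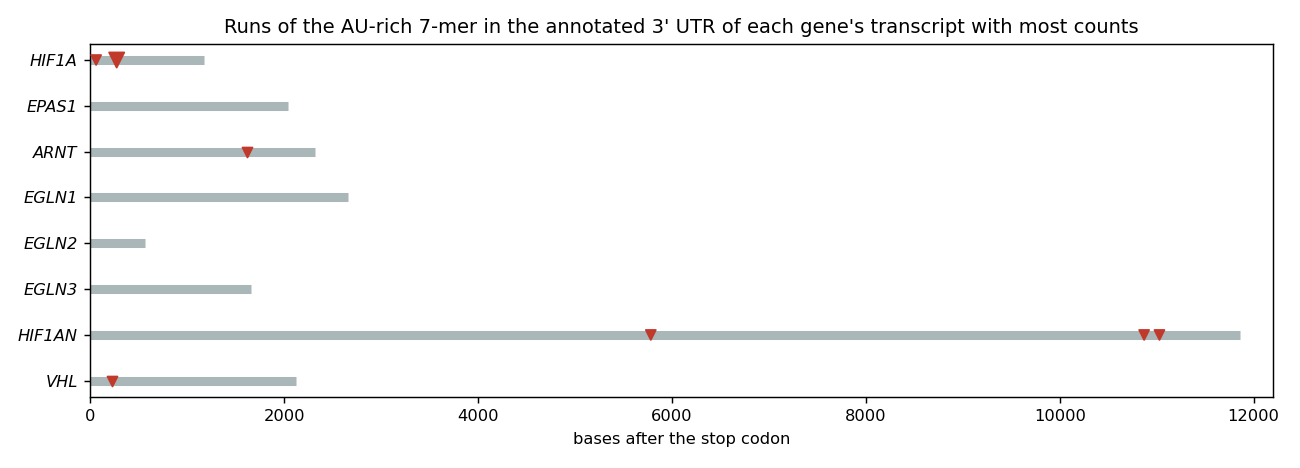
Annotated 3' UTR of each gene's transcript with the most estimated counts (grey bar, length in bases after the stop codon), with red triangles at runs of the heptamer and a larger triangle where 2 copies overlap. HIF1A has its 3 copies within the first 300 bases, HIF1AN has 3 spread over 11861 bases, and 4 genes have none.

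Both alpha subunits fell in tet-ZFP36L1 after induction. HIF1A (ENSG00000100644, chr14:61695513-61748259, plus strand) had 395.4, 250.0 and 161.8 CPM after 0, 6 and 24 h in tet-ZFP36L1, against 315.8, 355.9 and 298.8 CPM in tet-control. Its induced libraries were below all 3 tet-control libraries, and its 0 h library was above them. The log2 change from 0 h was -0.66 (-0.71 to -0.61) at 6 h and -1.29 (-1.34 to -1.23) at 24 h in tet-ZFP36L1, against 0.17 (0.12 to 0.22) and -0.08 (-0.13 to -0.03) in tet-control. The induction difference, which subtracts the tet-control change from the tet-ZFP36L1 change, was -0.83 (-0.90 to -0.76) at 6 h and -1.21 (-1.28 to -1.13) at 24 h. Of this, 0.32 is the excess of tet-ZFP36L1 over tet-control at 0 h, and the lines stood at -0.51 at 6 h and -0.88 at 24 h.

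EPAS1 (ENSG00000116016, chr2:46293667-46386703, plus strand), which encodes the second alpha subunit and is best known from endothelium and from clear cell kidney cancer, differed between the lines before any doxycycline. It had 127.7, 71.8 and 45.26 CPM in tet-ZFP36L1, against 10.87, 18.67 and 14.73 CPM in tet-control. All 3 tet-ZFP36L1 libraries were above all 3 tet-control libraries, and the gap narrowed with time. At 0 h the ratio of tet-ZFP36L1 to tet-control was 11.3 (log2 3.49, 3.30 to 3.68), and 65 of the 11909 genes had a ratio as high or higher. At 6 h the log2 ratio was 1.92 (1.75 to 2.08) and at 24 h it was 1.59 (1.40 to 1.77).

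Within tet-ZFP36L1, EPAS1 was lower than at 0 h by log2 values of -0.83 (-0.92 to -0.73) at 6 h and -1.49 (-1.59 to -1.38) at 24 h. In tet-control it was higher than at 0 h by 0.75 (0.52 to 0.99) at 6 h, with 349 counts at 6 h and 219 at 0 h, and by 0.42 (0.18 to 0.66) at 24 h. With deposited TPM or a pseudocount of 5 CPM the 6 h value of tet-control was no longer past 1.5-fold. The induction differences were therefore -1.58 (-1.83 to -1.33) and -1.91 (-2.17 to -1.64), the lowest of the 7 measured members. At 24 h 73 of the 11909 genes were as low or lower. Its level did not reach that of tet-control at either time.

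**Figure D2:**
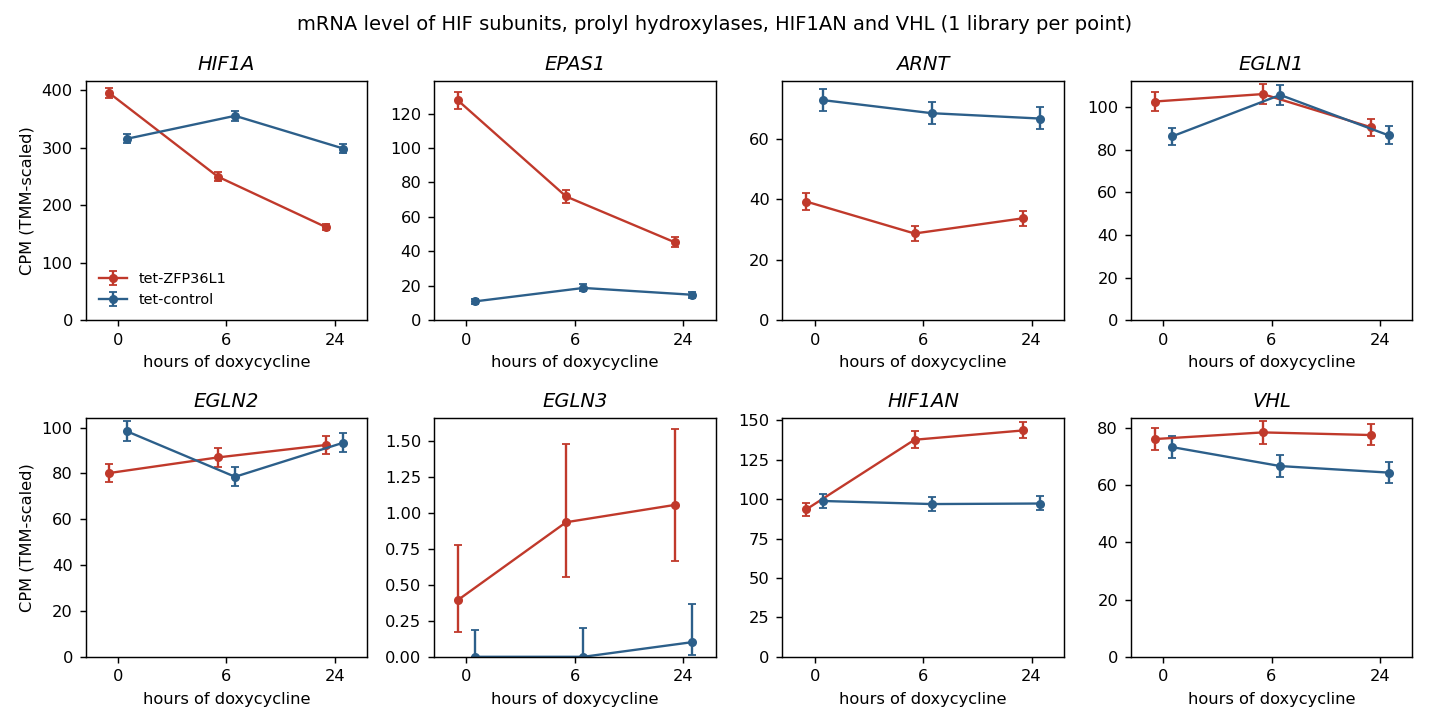
Level of each of the 8 genes in CPM (TMM-scaled, each panel with its own axis from 0) after 0, 6 and 24 h of doxycycline, drawn at equal spacing, for tet-ZFP36L1 (red) and tet-control (blue). Points are single libraries and bars are exact Poisson intervals of the count; HIF1A and EPAS1 decline in tet-ZFP36L1, HIF1AN climbs, and ARNT lies below tet-control throughout.

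ARNT (ENSG00000143437, chr1:150809705-150876768, minus strand), the shared partner, also differed between the lines from the start, in the other direction. It had 39.19, 28.62 and 33.64 CPM in tet-ZFP36L1, against 72.68, 68.38 and 66.61 CPM in tet-control. All 3 tet-ZFP36L1 libraries were below all 3 tet-control libraries. The log2 difference between lines was -0.88 (-1.01 to -0.76) at 0 h, -1.24 (-1.38 to -1.10) at 6 h and -0.98 (-1.10 to -0.85) at 24 h. The induction difference was -0.36 (-0.55 to -0.17) at 6 h and -0.09 (-0.27 to 0.09) at 24 h, neither past 1.5-fold.

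Per length, HIF1A was the most abundant of the 3 subunit mRNAs in each library. Summed TPM of HIF1A was 241.8, 144.2 and 107.9 in tet-ZFP36L1 and 195.3, 231.1 and 168.7 in tet-control. EPAS1 had 52.19, 21.83 and 21.42 TPM in tet-ZFP36L1 against 4.15, 5.84 and 5.49 TPM in tet-control, and ARNT had 15.32, 10.65 and 12.70 TPM against 27.14, 25.45 and 23.01 TPM. EPAS1 thus stood above ARNT in each tet-ZFP36L1 library and below it in each tet-control library. The transcript of each gene with the most counts gave the same order in each library, with HIF1A at 54.22, 45.12 and 22.87 TPM in tet-ZFP36L1, against 35.76, 37.39 and 38.58 TPM in tet-control. The summed TPM of HIF1A and EPAS1 was 19.2, 15.6 and 10.2 times that of ARNT in tet-ZFP36L1. In tet-control it was 7.35, 9.31 and 7.57 times. The fall of this ratio at 6 h in tet-ZFP36L1 depends on the transcripts counted. There the transcript of ARNT with the most counts had 6.609, 3.996 and 5.05 TPM, and that of EPAS1 31.71, 17.45 and 11.61 TPM. From 0 to 6 h that ARNT transcript thus fell by a larger factor than those of HIF1A and EPAS1 together. From 0 to 24 h it fell by a smaller one.

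The level of EPAS1 at 24 h depended on which transcripts were counted. Its coding transcript ENST00000263734 held 93.5% to 97.3% of the gene's estimated counts per library and had 31.71, 17.45 and 11.61 TPM in tet-ZFP36L1, against 2.58, 4.33 and 3.40 TPM in tet-control. Summed TPM gives short transcripts a large weight, and the other EPAS1 transcripts with counts are not annotated as coding. On that sum the 6 and 24 h libraries of tet-ZFP36L1 were nearly equal, whereas the counts and the coding transcript were lower at 24 h.

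**Figure D3:**
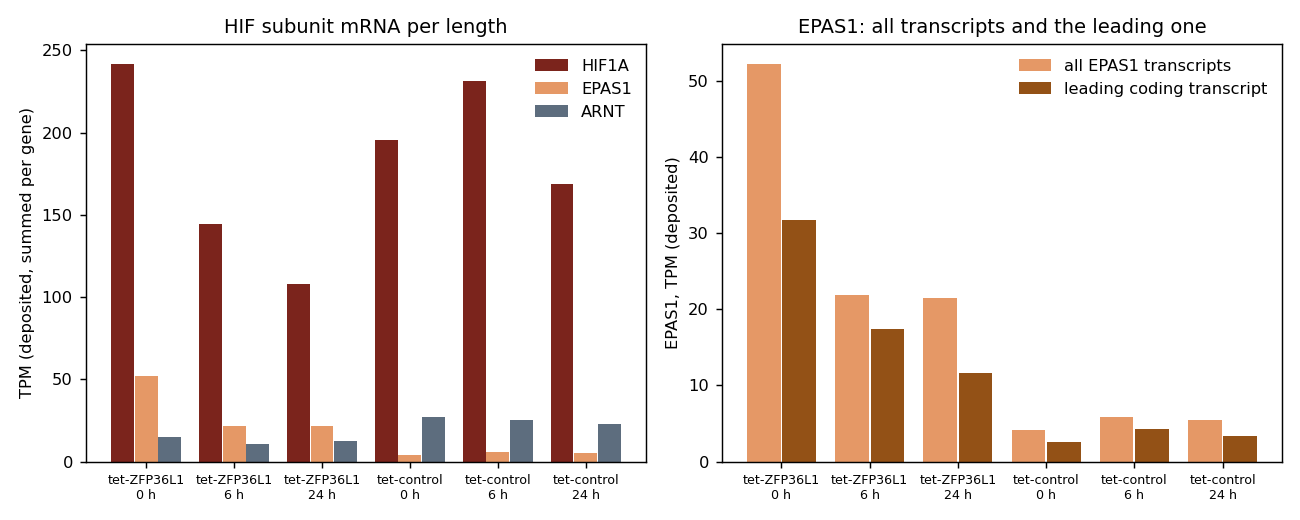
Deposited TPM per library, tet-ZFP36L1 left and tet-control right: HIF1A, EPAS1 and ARNT summed over their transcripts (left panel), and EPAS1 as the sum of its transcripts beside its leading coding transcript (right panel). EPAS1 is above ARNT in the 3 tet-ZFP36L1 libraries and below it in tet-control, and the leading EPAS1 transcript has 17.45 TPM at 6 h and 11.61 TPM at 24 h in tet-ZFP36L1.

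Of the hydroxylases, HIF1AN (ENSG00000166135, chr10:100529072-100559998, plus strand) was the member with the highest induction difference. It had 93.45, 137.7 and 143.6 CPM in tet-ZFP36L1, against 98.84, 96.90 and 97.24 CPM in tet-control. The lines were close at 0 h, at a log2 difference of -0.08 (-0.17 to 0.01), and both induced libraries were above the other 4. Its change in tet-ZFP36L1 was 0.56 (0.47 to 0.64) at 6 h, just short of 1.5-fold, and 0.62 (0.54 to 0.70) at 24 h, just past it. In tet-control the changes were -0.03 (-0.12 to 0.06) and -0.02 (-0.11 to 0.07), and the induction differences were 0.59 (0.46 to 0.71) and 0.64 (0.52 to 0.76). Its coding transcript of 13011 bases had 1567, 2248 and 2658 estimated counts in tet-ZFP36L1, against 1640, 1526 and 1611 in tet-control, and held 82.3% to 84.7% of the gene in each library. The opposite-strand neighbour NDUFB8, a respiratory chain gene that shares 2.12% of the 31-base words of HIF1AN, had 1814, 1787 and 1825 counts in tet-ZFP36L1 and 2125, 1686 and 2047 in tet-control, and so did not follow it.

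EGLN1 (ENSG00000135766, chr1:231363751-231425044, minus strand), the main prolyl hydroxylase for HIF in most cells, had 102.7, 106.2 and 90.57 CPM in tet-ZFP36L1, against 86.28, 105.8 and 86.81 CPM in tet-control. The libraries of both lines overlapped, with the 6 h library the highest in each. Its induction difference was -0.24 (-0.37 to -0.12) at 6 h and -0.19 (-0.32 to -0.06) at 24 h. It shares 4.16% of its 31-base words with SCAND2P.

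EGLN2 (ENSG00000269858, chr19:40798996-40808433, plus strand) had 80.19, 86.99 and 92.44 CPM in tet-ZFP36L1, against 98.44, 78.55 and 93.44 CPM in tet-control. Its induction difference of 0.44 (0.30 to 0.58) at 6 h was made mostly by a change of -0.32 (-0.42 to -0.23) in tet-control, and at 24 h it was 0.28 (0.15 to 0.41). The change of 0.12 in tet-ZFP36L1 at 6 h was -0.24 with deposited TPM and 0.01 with coding transcripts alone. EGLN2 shares 28.9% of its 31-base words with the readthrough gene RAB4B-EGLN2, and reads from those words could come from either gene. That share is not the size of the error in its counts. The readthrough gene held 4 to 99 counts per library, against 1468 to 2020 for EGLN2. Per length the prolyl hydroxylases ran in the order EGLN2, EGLN1, EGLN3 in each library, with EGLN2 at 1.51 to 2.58 times EGLN1 in summed TPM. The transcript of each gene with the most counts gave the same order, with EGLN2 at 34.88 to 52.53 TPM and EGLN1 at 12.59 to 16.46 TPM. The size of the ratio thus depends on the transcripts counted. EGLN1 also has a short noncoding transcript of 829 bases. The summed TPM of EGLN2 was likewise above its leading transcript, at 92.95 against 37.64 TPM in tet-ZFP36L1 at 0 h. The part of each gene in the ratio was not tested.

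EGLN3 (ENSG00000129521, chr14:33924231-34462774, minus strand), known as a HIF-induced gene, had 8, 18 and 23 counts in tet-ZFP36L1, against 0, 0 and 2 in tet-control. Each tet-ZFP36L1 library held more than each tet-control library. With 3 counts taken as the limit that a count of 0 allows in 1 library, EGLN3 was at least 2.64-fold higher in tet-ZFP36L1 at 0 h and at least 5.81-fold higher at 6 h, taking the 8 and 18 counts without their own error. The exact Poisson intervals overlapped at 0 h, at 0.17 to 0.77 CPM in tet-ZFP36L1 and 0 to 0.18 CPM in tet-control, and were apart at 6 h, at 0.55 to 1.48 CPM and 0 to 0.20 CPM. At 24 h the ratio of tet-ZFP36L1 to tet-control was 10.4, with an exact binomial interval of 2.57 to 91.0. These counts correspond to 0.39, 0.93 and 1.05 CPM in tet-ZFP36L1. Against its own 0 h library, EGLN3 in tet-ZFP36L1 had a ratio of 2.38 at 6 h, with an exact binomial interval of 0.98 to 6.31, and of 2.68 at 24 h, with an interval of 1.16 to 6.93, so the counts are too few for a firm size.

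VHL (ENSG00000134086, chr3:10141008-10152220, plus strand) had 76.11, 78.44 and 77.52 CPM in tet-ZFP36L1, against 73.32, 66.67 and 64.39 CPM in tet-control. All 3 tet-ZFP36L1 libraries were above all 3 tet-control libraries, by little. The induction difference was 0.18 (0.03 to 0.33) at 6 h and 0.21 (0.07 to 0.36) at 24 h, to which the changes of -0.14 and -0.19 in tet-control gave the larger part.

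**Figure D4:**
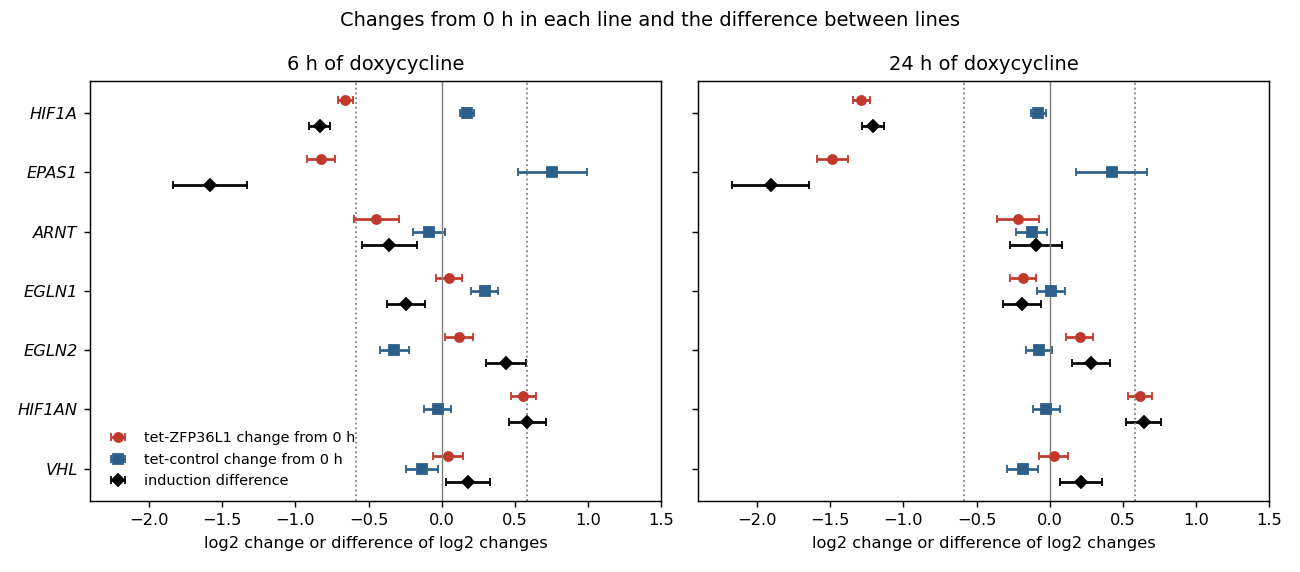
Log2 change from 0 h in tet-ZFP36L1 (red circles) and tet-control (blue squares) and their difference (black diamonds) for the 7 measured genes, at 6 h (left) and 24 h (right). Bars are 95% counting intervals and dotted lines mark 1.5-fold; HIF1A and EPAS1 lie left of the lower line in tet-ZFP36L1 at both times, and HIF1AN is past the upper line in both measures at 24 h.

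Counted by the 1.5-fold rule, which for the induction difference also requires the tet-ZFP36L1 change itself to be past 1.5-fold, 2 of 7 measured members were lower at 6 h, HIF1A and EPAS1, and none was higher. Over all genes 8.85% were lower and 3.06% higher. At 24 h the same 2 members were lower and HIF1AN was higher, where 14.3% of all genes were lower and 9.45% higher. Without the TMM factors that split was 9.72% lower and 15.1% higher, and the same 3 members counted. With deposited TPM only HIF1A and EPAS1 counted at 24 h: the induction difference of HIF1AN was then 0.75, but its own change in tet-ZFP36L1, at 0.54, was short of 1.5-fold. The median induction difference of the 7 was -0.24 at 6 h and -0.09 at 24 h, against -0.01 and -0.02 over all genes. Both times share the 0 h libraries. The share of all genes past the rule is high at 24 h, so a count of 3 in 7 members is not read as particular to them.

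The changes in each line gave the parts of that count. In tet-ZFP36L1, HIF1A and EPAS1 were lower and none higher at 6 h (15.6% and 9.09% of all genes), and at 24 h HIF1A and EPAS1 were lower and HIF1AN higher (17.0% and 11.8%). In tet-control no member was lower at 6 h (7.72%) and EPAS1 was higher (7.47%), while at 24 h no member was lower or higher (1.92% and 1.6%). In tet-ZFP36L1 at 24 h against 6 h, HIF1A at -0.63 (-0.69 to -0.56) and EPAS1 at -0.66 (-0.78 to -0.54) were lower and none was higher (8.48% and 12% of all genes), and without the TMM factors neither was past 1.5-fold.

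Between the lines, ARNT was lower and EPAS1 higher in tet-ZFP36L1 at 0 h, where 7.98% of all genes were lower and 10% higher. The same 2 members were past the rule at 6 h, with 15.3% of all genes lower and 12.4% higher. At 24 h HIF1A and ARNT were lower and EPAS1 higher, with 20.3% and 18.4% of all genes. When the induced library also had to differ from tet-control at its own time, no member counted at 6 h (5.79% of all genes lower and 1.7% higher) and HIF1A alone counted at 24 h (10.6% and 6.96%), since EPAS1 stayed above tet-control and HIF1AN stood at 0.56 from it.

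HIF1A transcripts were apportioned differently in the induced 6 h library. ENST00000337138, a coding transcript of 3919 bases, held 39.6%, 53.8% and 38.7% of the gene's estimated counts in tet-ZFP36L1, against 34.4%, 33.1% and 40.4% in tet-control. Its count was 3185, 2594 and 1367 in tet-ZFP36L1. The coding transcripts ENST00000557538 and ENST00000539097 were given equal counts in every library and together make up the second largest part, each with 1297, 523 and 550 counts in tet-ZFP36L1, against 1182, 1394 and 890 in tet-control. ENST00000394997, with 3922 bases, had 1249, 496 and 567 counts in tet-ZFP36L1, against 768, 494 and 759 in tet-control. At 6 h in tet-ZFP36L1 these 3 forms were lower by more than the leading transcript, and at 24 h the shares were back near those of 0 h. The division of reads among overlapping transcripts is an estimate, and its error is not in the deposited values used here. The overlapping gene AL137129.1 on the same strand, with 2.31% of the words of HIF1A, had 272, 112 and 126 counts in tet-ZFP36L1 and 244, 195 and 152 in tet-control. The antisense genes HIF1A-AS1 and HIF1A-AS2 had at most 5 counts in a library.

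ARNT was divided differently in the lines. Its shortest listed coding form, ENST00000505755 with 2427 bases, held 12.1%, 6.87% and 4.92% of ARNT in tet-ZFP36L1, against 23.3%, 16.3% and 12.3% in tet-control. ENST00000358595, with 4887 bases, held 61.2%, 52.3% and 51.7% in tet-ZFP36L1, against 41.6%, 39.8% and 45.3% in tet-control. The third, ENST00000354396, held 21.8%, 36.7% and 40.8% in tet-ZFP36L1, against 27.8%, 40.4% and 40.5% in tet-control. For VHL, ENST00000345392 held 63.9% to 69.2% of the gene in each library, and for EGLN1 ENST00000366641 held 83.1% to 86.1%.

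Genes around the HIF cycle were described by 3 lists. Of the VHL ligase and HIF cofactor genes, 19 of 20 were measured, and 1 was lower and 0 higher at 6 h, 3 lower and 0 higher at 24 h. Over all genes 8.85% were lower and 3.06% higher at 6 h, and 14.3% and 9.45% at 24 h, so the list's counts lie near those of all genes. ELOC, which encodes the elongin subunit that links VHL to its ligase, had 68.5, 40.49 and 31.81 CPM in tet-ZFP36L1, against 85.73, 90.91 and 91.52 CPM in tet-control. Its induction difference was -0.84 at 6 h and -1.19 at 24 h. CUL2, the scaffold of the same ligase, had 36.68, 29.86 and 17.44 CPM in tet-ZFP36L1, against 28.84, 28.63 and 29.66 CPM in tet-control, a difference of -0.28 at 6 h and -1.09 at 24 h. The third was HSP90AB1, a chaperone of many client proteins including HIF alpha subunits, at -1.07 at 24 h. The list's median was -0.09 at 6 h and -0.16 at 24 h.

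Of 30 HIF target genes, 27 were measured. At 6 h 10 were lower and 0 higher, and at 24 h 16 were lower and 1 was higher, with medians of -0.36 and -0.73. The shares over all genes were 8.85% lower and 3.06% higher at 6 h, and 14.3% and 9.45% at 24 h, with medians of -0.01 and -0.02. Without the TMM factors 13 targets were lower and 1 higher at 24 h, where 9.72% of all genes were lower and 15.1% higher. With deposited TPM 11 were lower and 1 higher, where the shares were 10.6% and 12.1%. HK2, a hexokinase, had 78.03, 46.87 and 30.07 CPM in tet-ZFP36L1, against 60.32, 143.2 and 65.3 CPM in tet-control, so its 6 h difference of -1.97 rests in good part on tet-control. The glucose transporter SLC2A1 was at -1.78 at 6 h and -2.07 at 24 h. It had 230.6, 82.69 and 61.23 CPM in tet-ZFP36L1, against 70.74, 87.7 and 79.22 CPM in tet-control. Most of its difference is thus its excess of log2 1.70 at 0 h, and the lines stood at -0.08 at 6 h and -0.37 at 24 h. VEGFA was at -1.68 at 24 h, with 50.58, 23.74 and 14.19 CPM in tet-ZFP36L1, against 27.7, 43.45 and 25.46 CPM in tet-control. Its excess at 0 h was 0.86. ADM, which encodes the vasodilator adrenomedullin, was the 1 higher target, at 1.21 at 24 h, with 8.89, 16.07 and 22.01 CPM in tet-ZFP36L1, against 19.21, 42.64 and 19.99 CPM in tet-control. Most of its difference is thus its lower start, at a log2 difference between lines of -1.07 at 0 h, and the lines stood at 0.14 at 24 h. CA9, a carbonic anhydrase often used as a hypoxia marker, had a mean count of 0.17 and was not measured. Whether target levels follow HIF1A or EPAS1 was not tested.

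Of 35 other 2-oxoglutarate oxygenases, the enzyme family of the hydroxylases above, 32 were measured. At 6 h 1 was lower and 2 were higher, and at 24 h 6 were lower and 3 higher, with medians of -0.06 and -0.03, where 8.85% of all genes were lower and 3.06% higher at 6 h, and 14.3% and 9.45% at 24 h. The split moved with the scaling: it was 3 lower and 2 higher at 6 h and 3 and 4 at 24 h without the TMM factors, and 4 and 2, then 3 and 3, with deposited TPM. ASPH, an aspartyl hydroxylase, was the lower one at 6 h, at -0.82. The histone demethylase KDM3B had 102.2, 601.5 and 526.2 CPM in tet-ZFP36L1, against 112.2, 102.1 and 100.5 CPM in tet-control, and KDM4A stood at 3.65 and 3.39 at 6 and 24 h. The collagen lysyl hydroxylases PLOD2 and PLOD3 were at -1.49 and -0.95 at 24 h. PLOD2 had 423.4, 287.5 and 123.5 CPM in tet-ZFP36L1, against 130.4, 136.4 and 107.0 CPM in tet-control. It thus came down from a higher start and was not below tet-control at 24 h. PLOD3 started near tet-control, at 118.2 against 116.2 CPM, and had 64.34 against 122.4 CPM at 24 h. P4HA1, P4HA2 and KDM3A stand on this list and on that of HIF targets.

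Profiles over the 6 libraries were compared by the root mean square distance between centred log2 values, a description of 6 libraries that share lines and times. C1orf52 was nearest to HIF1A, at a distance of 0.050 where HIF1A itself has a spread of 0.418, followed by SEC23A at 0.067 and UHMK1 at 0.071. FIBCD1, ITGA2 and RAP1GAP2 were nearest to EPAS1, at 0.138, 0.319 and 0.337 with a spread of 1.26, and WNK1 and CCDC88C were among the nearest to ARNT, at 0.054 and 0.080. CCDC97, ZNF45 and ZNF496 were nearest to HIF1AN, at 0.027, 0.028 and 0.048. EGLN1, EGLN2 and VHL had spreads of 0.108 to 0.130, so likeness to them says little: their nearest genes were MCTS2P, TCEANC2 and ZNF605 for EGLN1, CHID1, RPL18 and BOD1 for EGLN2, and INTS14, USP8 and ADNP for VHL.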

How the data were processed

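J82 RNA went into 6 BGISEQ500 libraries, as the labels' protocols state. Per the submitters' processing notes the authors used kallisto and DESeq2 with hg19 (no versions named). The deposited estimated counts per transcript can be fractional, and each library's deposited TPM column adds up to 1000000. The strand setting: not given in the sources used here.

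Of 196354 transcripts, 181857 matched GENCODE 29 (GRCh38) by identifier; the rest held 5.12% to 5.46% of the estimated counts and were left out. Counts were summed per gene, rounded and scaled with TMM (edgeR 4.0.16, R 4.3.3) over genes averaging 10 counts or more. The log2(CPM + 0.5) scale makes changes of low genes look smaller. With 1 library per group no count model was run. Intervals come from the counts (exact Poisson for levels, exact binomial for EGLN3 ratios, delta method for log2 changes). The files carry no molecular identifiers, so reads may repeat a molecule, and intervals and limits cover counting error only. The contrast and call code was tested on simulated counts with counting noise alone and planted changes well past 1.5-fold. That check covers neither changes near 1.5-fold nor variation between cultures. Python 3.11.15 with numpy 2.4.6, pandas 2.3.3, scipy 1.17.1 and matplotlib 3.10.9 was used.

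The members and lists were chosen with earlier results of these data known. Named genes are the 8 members and ZFP36L1, the 2 lowest and 2 highest genes past the rule in each list and time, the 3 nearest protein-coding profiles per measured member (1 is not reported here), and transcripts with at least 10% of a member's counts; NDUFB8, RAB4B-EGLN2, AL137129.1, the HIF1A antisense genes, HSP90AB1, CA9 and SCAND2P were named after their values were seen.

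The alternatives were DESeq2 1.42.0 size factors, plain CPM, deposited TPM, TMM without the tet-ZFP36L1 24 h library, other pseudocounts, thresholds, filters and transcript sets, other call rules, and 1 transcript choice added after seeing the data.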

Additional observations from a re-analysis of the deposited data

Results flagged for a closer look

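Opposite changes from 0 h in the lines, with both counting intervals leaving out 0, were seen for 3 members; with 1 library per group the difference between lines was not tested. HIF1A at 6 h changed by -0.66 in tet-ZFP36L1 and 0.17 in tet-control, a difference of -0.83. EPAS1 changed by -0.83 and 0.75 at 6 h, a difference of -1.58, and by -1.49 and 0.42 at 24 h, a difference of -1.91. EGLN2 at 6 h changed by 0.12 in tet-ZFP36L1 and -0.32 in tet-control, a difference of 0.44. With deposited TPM both lines were lower at 6 h for EGLN2, at -0.24 in tet-ZFP36L1 and -0.57 in tet-control, so the opposite direction is not kept there.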

How the results depend on the processing

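No called member value changed sign under any alternative that rescaled it. Over those alternatives the induction difference of HIF1A ranged from -0.99 to -0.78 at 6 h and from -1.24 to -0.95 at 24 h, that of EPAS1 from -1.69 to -1.37 and from -1.93 to -1.63, and that of HIF1AN from 0.56 to 0.62 and from 0.62 to 0.81. ARNT at 24 h ranged from -0.17 to 0.08. Plain CPM and the deposited TPM moved the median of all genes at 24 h to 0.15 and 0.10, and the split of all genes to 9.72% lower and 15.1% higher, and 10.6% and 12.1%. TMM computed without the tet-ZFP36L1 24 h library gave identical factors, so that alternative moved nothing and says nothing about dependence on that library.

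Of the counts, 155 stayed within 1.5 times and 29 moved. The 155 include those of TMM without the tet-ZFP36L1 24 h library, which could not move, so the tally is no measure of stability. With a 2-fold threshold, 0 members counted for the induction difference at 6 h, 0 for tet-ZFP36L1 at 6 h, 0 for tet-control at 6 h and 0 for tet-ZFP36L1 at 24 h against 6 h, and 1, EPAS1, between lines at 0 h and at 24 h. HIF1A and EPAS1 still counted as lower for the induction difference at 24 h and for tet-ZFP36L1 at 24 h against 0 h. Between lines at 6 h ARNT still counted as lower and EPAS1 as higher. Over all genes the 2-fold induction difference held 2.54% lower and 0.739% higher at 6 h, and 4.97% and 2.74% at 24 h. The shares were 6.23% and 3.38% for tet-ZFP36L1 at 24 h against 0 h, and 6.13% and 5.14% between lines at 6 h. Between lines 2.77% were lower and 5.05% higher at 0 h, and 8.32% and 8.91% at 24 h. At 6 h the shares were 5.43% and 2.1% in tet-ZFP36L1 and 2.23% and 2.43% in tet-control. In tet-ZFP36L1 at 24 h against 6 h they were 1.57% and 4.5%. The lists then gave 0 cofactors at 6 h, 4 and 8 HIF targets at 6 and 24 h, and 3 other oxygenases at 24 h. With a log2 threshold of 0.32, 4 members counted for the induction difference at 6 h, 4 for tet-ZFP36L1 at 6 h, 2 for tet-control at 6 h, 1 for tet-control at 24 h and 4 between lines at 6 h, and 10 cofactors at 24 h and 9 oxygenases at 6 h, where 17.3% of all genes were lower and 11.2% higher for the induction difference at 6 h, and 25.4% and 20.8% at 24 h. At a log2 threshold of 0.32, 27.7% of all genes were lower and 22.3% higher in tet-ZFP36L1 at 6 h. In tet-control the shares were 18.8% and 18% at 6 h and 7.82% and 5.8% at 24 h. Between lines at 6 h they were 27.5% and 24%. At 24 h against 6 h in tet-ZFP36L1, plain CPM and TPM left 0 members. In tet-control at 6 h, TPM and a pseudocount of 5 CPM left 0. Other oxygenases at 6 h were 5 with plain CPM and 6 with TPM. Requiring the induced library to differ from tet-control at its own time as well left 0 members at 6 h and 1 at 24 h. The heptamer was in 2 members, or 4 with the longest 3' UTR and 4 with the transcript of most counts; the pentamer was in 5, or 7 with either of those transcripts, and the nonamer in 1. The cause of these moves was not tested beyond the thresholds themselves.

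No paired analysis was possible because each group has 1 library and the labels carry no replicate numbers; leaving out a library would leave its group empty. Depth limits EGLN3 and, in tet-control, EPAS1.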
